A study of Mus musculus with 6 samples.

Results

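Levels of 36 endothelial genes were described in RNA sequencing libraries of intrahepatic biliary epithelial cells of the mouse, which form the walls of bile ducts in the liver. The genes were chosen by name as endothelial genes: 5 are typical of the liver sinusoids (Stab2, Lyve1, Clec4g, Fcgr2b and Oit3) and the other 31 are general vascular genes, of which some are also abundant in sinusoids. All 36 were among the 25302 rows of the deposited table, and all passed the filter on low values. There were 3 Control libraries of genotype Sox9fl/fl and 3 Sox9cKO libraries of genotype Sox9fl/fl:AlbCre+/-. Both groups therefore carried the floxed Sox9 alleles, and the Sox9cKO group carried in addition the AlbCre transgene, in which an albumin promoter drives Cre recombinase in hepatoblasts and the hepatocytes and biliary cells that descend from them. Endothelial cells are not of that lineage. The age and sex of the mice, the way the cells were isolated and what the replicate numbers stand for are not given in the sources used here. Nothing in the labels says that the libraries came from separate animals, so that p-values measure the spread between these libraries, which may be technical.

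Liver sinusoids are lined by fenestrated endothelial cells that lack a continuous basement membrane. These cells take up hyaluronan, modified proteins and immune complexes from the blood through scavenger and Fc receptors. The endothelium of arteries and veins shares with them the junction proteins, the receptors for vascular endothelial growth factor (VEGF) and angiopoietin, and the ETS and SoxF transcription factors, but makes more von Willebrand factor and less of the scavenger receptors. Whether biliary cells add to the values of any of these genes was not tested.

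The libraries held between 11883496 and 16191990 reads over 23743 to 25084 genes with at least 1 read. Sox9, the targeted gene, had 6211, 6043 and 6293 normalized counts (reads divided by 1 size factor per library) in Control 1, 2 and 3 and 3363, 3165 and 3340 in Sox9cKO 1, 2 and 3, a difference of -0.91 on the log2 scale (SE 0.0952, limma adjusted p = 0.00501). Biliary markers were abundant in every library, with 10 genes summing to 74194 to 112170 normalized counts in Control and 70187 to 99772 in Sox9cKO. Of 17153 genes tested, 349 were called higher and 161 lower in Sox9cKO.

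Promoter sequence was at hand for 17 of the 36 genes, in the RefSeq table of build GRCm38.p6. Stab2 and Clec4g are shown for the sinusoidal genes and Kdr and Tie1 for the receptors, since all 4 had the same order of libraries in the values given further on. Each window holds the 250 bases before the transcription start, 5′ to 3′ on the gene's strand, which is the minus strand for all 4: Stab2 at chr10:87007943-87008192, Clec4g at chr8:3720652-3720901, Kdr at chr5:75978456-75978705 and Tie1 at chr4:118489850-118490099. Capitals mark an ETS motif, AGGAAG, or its reverse complement CTTCCT. Other forms of the ETS site were not searched and are not marked.
Stab2: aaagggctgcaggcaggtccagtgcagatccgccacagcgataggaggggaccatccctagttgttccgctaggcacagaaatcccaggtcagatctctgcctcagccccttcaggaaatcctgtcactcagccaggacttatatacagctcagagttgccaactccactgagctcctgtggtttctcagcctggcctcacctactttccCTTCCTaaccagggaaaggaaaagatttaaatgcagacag
Clec4g: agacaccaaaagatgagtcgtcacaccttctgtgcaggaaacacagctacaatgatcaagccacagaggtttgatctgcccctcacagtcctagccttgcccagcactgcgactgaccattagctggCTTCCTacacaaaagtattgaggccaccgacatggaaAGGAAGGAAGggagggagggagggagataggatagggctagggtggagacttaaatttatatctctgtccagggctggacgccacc
Kdr: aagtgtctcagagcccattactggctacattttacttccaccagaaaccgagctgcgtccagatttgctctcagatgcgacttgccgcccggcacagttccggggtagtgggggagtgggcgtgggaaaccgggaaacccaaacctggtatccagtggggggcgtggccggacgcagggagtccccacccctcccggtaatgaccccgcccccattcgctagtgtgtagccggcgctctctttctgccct
Tie1: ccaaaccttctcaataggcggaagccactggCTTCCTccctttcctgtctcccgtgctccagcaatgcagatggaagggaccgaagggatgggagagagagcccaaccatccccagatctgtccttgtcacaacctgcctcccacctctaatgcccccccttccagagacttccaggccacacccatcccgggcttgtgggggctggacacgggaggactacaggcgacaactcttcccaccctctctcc

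This ETS motif was found once in the Stab2 and Tie1 windows, 3 times in that of Clec4g, where 2 of the matches overlap, and not in that of Kdr. Over the members, 11 of the 17 genes had it in at least 1 window (12 of 21 windows), against 29.5% of all 32851 windows of this length. A GATA motif (AGATAA, both strands) lay in the window of 1 of the 17 genes, Erg (1 of 21 windows), against 9.99% of all windows. A SOX motif (ACAAAG, both strands) lay in those of 3, Egfl7, Eng and Tek (3 of 21 windows), against 16.5% of all windows. The search for 1 motif did not use matches of another, and a match is a run of letters and not a bound site.

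The 36 genes differed far more between libraries of 1 genotype than between genotypes. Their reads made up 0.212%, 0.699% and 0.0328% of the library in Control 1, 2 and 3, and 0.499%, 0.691% and 0.111% in Sox9cKO 1, 2 and 3. The group means were 0.315% ± 0.345 in Control and 0.434% ± 0.296 in Sox9cKO (SD, n = 3 libraries each). Control 2 and Sox9cKO 2 were highest and almost equal, Control 3 was lowest, and the range over the 6 libraries was 21.3-fold. In bulk samples fewer endothelial cells and less endothelial RNA per cell cannot be told apart.

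Control 3 stood apart for nearly all of the genes. Its normalized count was the lowest of the 6 for 35 of the 36 members, against 19.4% of all genes tested, with Aplnr as the exception. For 33 of the 36 the libraries fell in 1 order, namely Control 3, then Sox9cKO 3, then Control 1, then the other 3. That order was noticed in these data, and 4.3% of all genes tested had it. The highest library was at least 10 times the lowest (on value + 1) for 32 members, against 4.63% of all genes. The median of that ratio was 22.5 over the members and 1.84 over all genes tested.

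**Figure D1:**
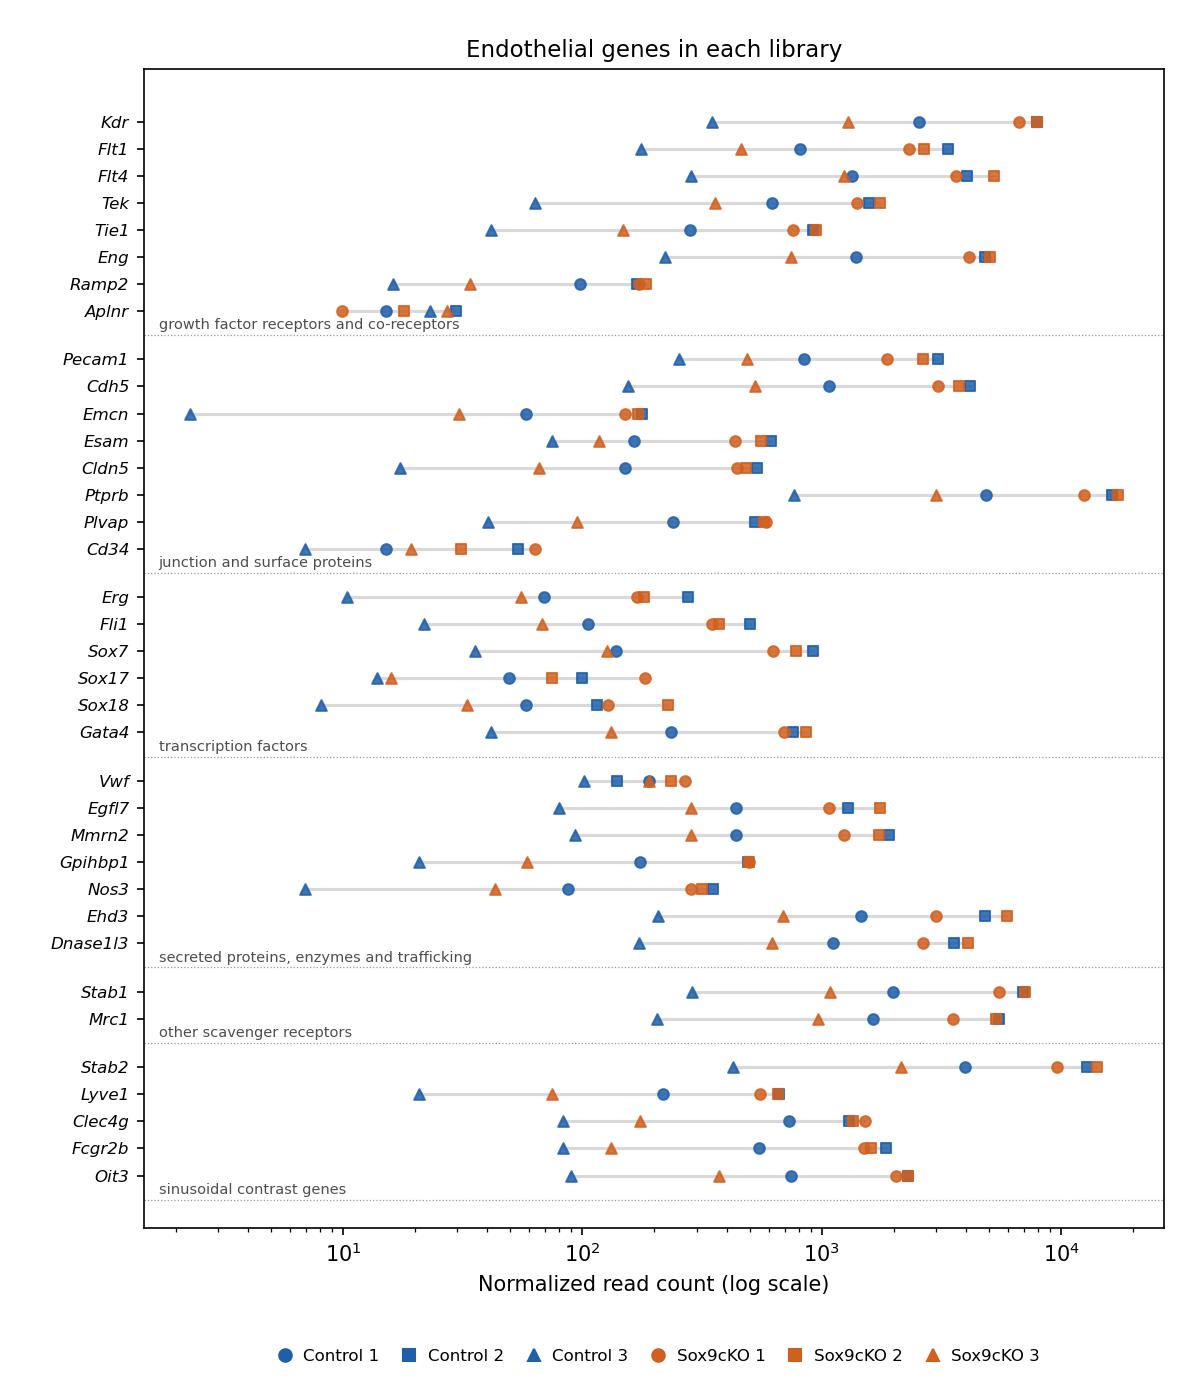
Normalized read count of each of the 36 genes (log axis), by role, with 1 point per library, blue for Control and orange for Sox9cKO, and shapes for the replicate numbers. The 3 symbols at the left of most lines are Control 3, Sox9cKO 3 and Control 1, and 35 of the 36 genes are lowest in Control 3.

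Among the growth factor receptors and co-receptors, 8 genes, 7 had this order of libraries. Kdr, the main signalling receptor for VEGF, had 2534, 7929 and 347 normalized counts in the Control libraries and 6660, 7904 and 1286 in the Sox9cKO libraries, in order of replicate number. Its group means were 3603 ± 3902 and 5283 ± 3517 (SD, n = 3 each), and the groups overlapped fully. The log2 difference between Sox9cKO and Control, on log2(value + 1), was 1.09 (SE 1.16, limma adjusted p = 0.686). Flt4, the VEGF-C receptor of lymphatic and sinusoidal endothelium, had 1331, 4042 and 283 in Control and 3638, 5235 and 1240 in Sox9cKO, a difference of 1.32 (SE 0.95, limma adjusted p = 0.533). Each Sox9cKO library of Flt4 lay above the Control library of the same number, although the groups overlapped. Flt1, a VEGF receptor that binds the ligand tightly and signals weakly, had 811, 3368 and 175 against 2322, 2684 and 461. Tek, the angiopoietin receptor, had 621, 1570 and 63.4 in Control and 1402, 1756 and 358 in Sox9cKO. Its partner Tie1 had 282, 917 and 41.5 against 760, 950 and 147, so that both genes of the pair were lowest in Control 3 and highest in the libraries numbered 2. Eng, a co-receptor for TGF-beta family ligands, had 1394, 4813 and 221 against 4127, 5028 and 742. Ramp2, the partner of the adrenomedullin receptor, had 97.5, 169 and 16.1 against 172, 184 and 34.0.

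The junction and surface genes showed the same picture in 7 of 8. Cdh5 encodes VE-cadherin, the adherens junction protein of endothelium, and had 1071, 4167 and 156 normalized counts in Control and 3048, 3740 and 526 in Sox9cKO. The means were 1798 ± 2102 and 2438 ± 1691 (SD, n = 3 each), with a log2 difference of 1.03 (SE 1.22, limma adjusted p = 0.720). Pecam1, an adhesion protein of endothelial contacts that platelets and leukocytes also carry, had 841, 3057 and 253 in Control and 1870, 2654 and 489 in Sox9cKO. Its range over libraries was narrower than that of Cdh5, and its log2 difference was 0.63 (SE 0.95, limma adjusted p = 0.785). Ptprb, the phosphatase that acts on Tek and VE-cadherin, had the highest count of the 36 genes before division by length: 4853, 16319 and 765 in Control and 12456, 17203 and 3007 in Sox9cKO. Cldn5, a tight junction claudin, had 150.5, 538 and 17.3 against 441, 483 and 65.7. Esam, an adhesion molecule of endothelial junctions, had 165, 615 and 74.9 against 435, 558 and 118. Plvap, the protein of fenestral diaphragms, had 239.6, 523 and 40.3 against 585, 574 and 95.1. Its values followed the median of the members closely, as described further on. Emcn, an endothelial sialomucin, had 58.0 and 177 in Control 1 and 2 and 151, 170.1 and 30.6 in Sox9cKO. Its value of 2.30 in Control 3 rests on 2 reads (95% exact Poisson interval 0.279 to 8.32 normalized counts, for counting error only), and it is left out of the ranges of ratios below.

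All 6 transcription factors had the order of libraries. Erg and Fli1 are ETS factors of endothelial identity. Erg had 68.9, 276 and 10.4 normalized counts in Control and 169, 181 and 55.5 in Sox9cKO. For Fli1 the Control values were 106, 500.3 and 21.9 and the Sox9cKO values 349, 370.5 and 67.9. Both ETS factors were highest in Control 2. The 3 SoxF genes, relatives of Sox9 that act in vessel growth, were less alike. Sox7 had 139, 922 and 35.7 in Control and 624, 782 and 127 in Sox9cKO. Sox18 had 58.0, 115 and 8.06 in Control and 128, 228 and 32.8 in Sox9cKO, with means of 60.4 ± 53.6 and 129.6 ± 97.5 (SD, n = 3 each) and a log2 difference of 1.34 (SE 1.04, limma adjusted p = 0.567). Sox17 had 49.6, 99.3 and 13.8 in Control and 183, 74.7 and 15.8 in Sox9cKO, a log2 difference of 0.55 (SE 0.98, limma adjusted p = 0.825). Sox17 was thus highest in Sox9cKO 1, Sox7 in Control 2 and Sox18 in Sox9cKO 2. Gata4, which maintains the sinusoidal programme of liver endothelium, had 234, 755 and 41.5 against 692, 857 and 131.

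Of the 7 genes for secreted proteins, enzymes and trafficking, 6 had the order. Egfl7, a matrix-bound protein secreted by endothelium, had 438, 1285 and 79.5 normalized counts in Control and 1074, 1745 and 284 in Sox9cKO, a log2 difference of 1.19 (SE 1.05, limma adjusted p = 0.618). Mmrn2, an extracellular matrix glycoprotein of vessels, had 438, 1908 and 93.3 against 1234, 1733 and 283. Nos3, the endothelial nitric oxide synthase, had 87.4, 349.9 and 6.91 against 285, 316 and 43.0, and its lowest value rests on 6 reads. Gpihbp1 anchors lipoprotein lipase on capillaries and had 175, 490.05 and 20.7 against 498, 497 and 58.9. Ehd3, an endocytic recycling protein, had 1454, 4791 and 206 against 3000, 5962 and 688. Dnase1l3, a secreted nuclease, had 1115, 3567 and 172 against 2658, 4083 and 617. The last pair are abundant in sinusoidal endothelium, as are the scavenger receptors Stab1 and Mrc1. Stab1 had 1992, 6929 and 288 in Control and 5508, 7076 and 1079 in Sox9cKO. Mrc1, the mannose receptor, had 1632, 5508 and 205 against 3533, 5338 and 962.

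All 5 sinusoidal genes had the order of libraries, and none was called. Stab2, the main hyaluronan clearance receptor of the sinusoids, had 3982, 12848 and 424 normalized counts in Control and 9565, 14073 and 2140 in Sox9cKO. Its means were 5751 ± 6398 and 8592 ± 6026 (SD, n = 3 each), with a log2 difference of 1.24 (SE 1.24, limma adjusted p = 0.663). Lyve1, a hyaluronan receptor that lymphatic endothelium also makes, had 218, 665 and 20.7 against 552, 657 and 74.7, a log2 difference of 1.04 (SE 1.32, limma adjusted p = 0.740). Libraries 2 of both genotypes were nearly equal for Lyve1. Clec4g, a C-type lectin of sinusoids and lymph nodes, had 729.6, 1301 and 83.0 against 1519, 1352 and 173, a log2 difference of 0.72 (SE 1.17, limma adjusted p = 0.804). Fcgr2b, the inhibitory Fc receptor through which sinusoids clear immune complexes, had 546, 1853 and 83.0 against 1503, 1605 and 131, a log2 difference of 0.64 (SE 1.31, limma adjusted p = 0.849). Oit3, a zona pellucida domain protein of sinusoidal endothelium, had 746, 2283 and 89.9 against 2037, 2280.4 and 371, a log2 difference of 1.16 (SE 1.20, limma adjusted p = 0.675). For each of the 5, the groups overlapped and the lowest library was Control 3.

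The sinusoidal and general vascular genes had the same order of libraries, with smaller differences between the sets. Sinusoidal genes held 21.5%, 20.0% and 15.6% of the members' reads in Control 1, 2 and 3 and 20.6%, 20.2% and 17.9% in Sox9cKO 1, 2 and 3, with means of 19.0% ± 3.08 and 19.6% ± 1.50 (SD, n = 3 each). This share varied 1.38-fold while the members' share of the library varied 21.3-fold. It was lowest in the libraries numbered 3, which had the fewest endothelial reads in each group. The mean log2 level of the sinusoidal genes exceeded that of the vascular genes by 1.35, 1.24 and 0.65 in Control and by 1.33, 1.25 and 0.58 in Sox9cKO. The group means of that excess were 1.08 ± 0.375 and 1.05 ± 0.411, a difference of -0.028, and libraries with the same number were closer to each other than to the rest of their group. With medians in place of means the excess was 1.0 ± 0.610 in Control and 0.76 ± 0.467 in Sox9cKO, a difference of -0.24. Against the 25 vascular genes left without Stab1, Mrc1, Gata4, Ehd3, Dnase1l3 and Flt4 it was 1.62 ± 0.535 and 1.23 ± 0.585, a difference of -0.39. All 3 differences were below the SD within either group. The median log2 difference between genotypes was 1.04 over the 5 sinusoidal genes (range 0.64 to 1.24) and 1.08 over the 31 vascular genes (range -0.34 to 1.52), against 0.036 over all genes tested. The 1.52 was that of Emcn, and the highest over the members with more than 3 reads in every library was 1.34. Without the 6 vascular members that sinusoids also make in quantity (Stab1, Mrc1, Gata4, Ehd3, Dnase1l3 and Flt4, a set chosen after seeing the data), the vascular median was 0.998. Without Control 3 both medians went below 0, to -0.34 and -0.13.

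Ratios inside a library, which do not depend on the size factor, varied more for some pairs of genes than for others. Stab2 was 3.72, 3.08 and 2.73 times Cdh5 in Control and 3.14, 3.76 and 4.06 times in Sox9cKO, with no common order of libraries. Lyve1 was 0.203, 0.160 and 0.133 times Cdh5 in Control and 0.181, 0.176 and 0.142 times in Sox9cKO, lowest in both libraries numbered 3. Clec4g moved more, at 0.681, 0.312 and 0.533 times Cdh5 in Control and 0.498, 0.362 and 0.329 times in Sox9cKO. Against Pecam1 the sinusoidal genes were low in Control 3: Stab2 was 4.74, 4.20 and 1.67 times Pecam1 in Control and 5.11, 5.30 and 4.38 times in Sox9cKO. Lyve1 was 0.259, 0.218 and 0.0818 times Pecam1 in Control and 0.295, 0.248 and 0.153 times in Sox9cKO. Vwf behaved otherwise, at 0.177, 0.0334 and 0.652 times Cdh5 in Control and 0.0878, 0.0629 and 0.361 times in Sox9cKO. The ratio of Vwf to Cdh5 was thus highest where the endothelial genes were lowest.

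**Figure D2:**
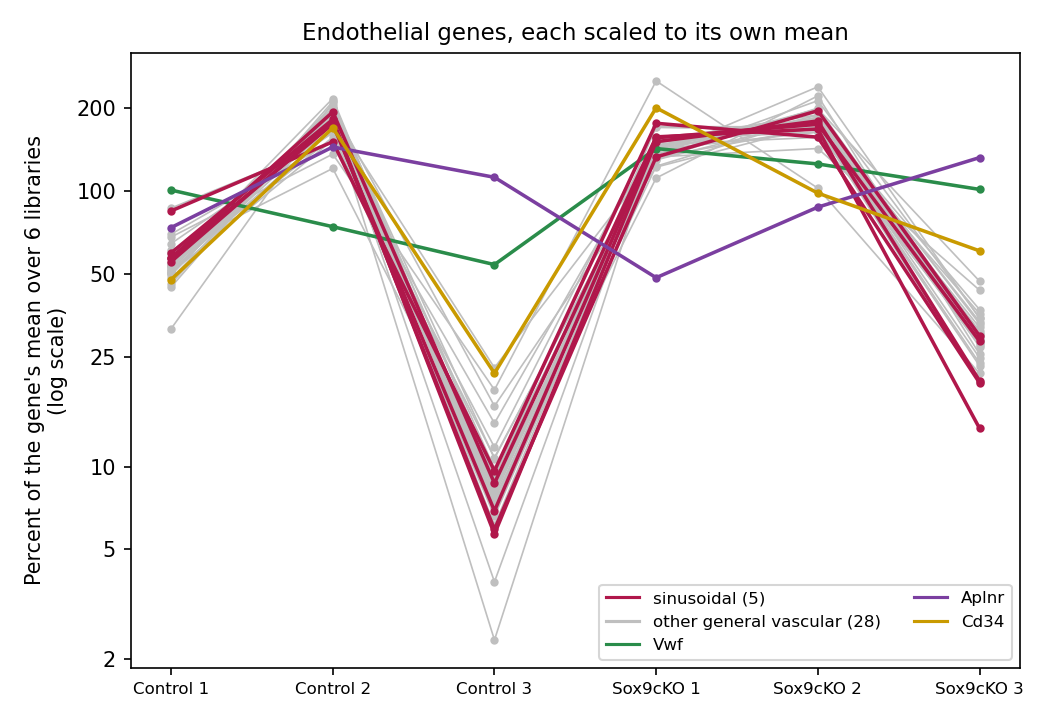
Each gene's normalized count in each library as a percent of that gene's mean over the 6 libraries (log axis), with the 5 sinusoidal genes in red, 28 vascular genes in grey, and Vwf, Aplnr and Cd34 in their own colours. The red and grey lines rise and fall together between libraries, while Vwf and Aplnr stay within a much narrower range.

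Vwf, Aplnr and Cd34 were the 3 members without the common order. Vwf, the clotting and adhesion protein stored by endothelial cells and platelets, had 189.1, 139 and 101 normalized counts in Control and 268, 235 and 190.2 in Sox9cKO. It was the only member whose groups did not overlap, which 24.2% of all genes tested also showed, and Control 1 and Sox9cKO 3 lay next to each other. The means were 143 ± 44.0 and 231 ± 38.9 (SD, n = 3 each), with a log2 difference of 0.72 (SE 0.26, limma adjusted p = 0.208). Aplnr, the apelin receptor, had 15.1, 29.7 and 23.0 in Control and 9.95, 18.0 and 27.2 in Sox9cKO. It was the only member with a difference below 0, -0.34 on the log2 scale (SE 0.45, limma adjusted p = 0.752). Cd34, a surface sialomucin of capillaries, had 15.1, 53.8 and 6.91 in Control and 63.7, 31.2 and 19.2 in Sox9cKO, with the highest value in Sox9cKO 1 and a log2 difference of 0.86 (SE 0.75, limma adjusted p = 0.613). Aplnr (10 to 32 reads) and Cd34 (6 to 64 reads) were among the members with the fewest reads, and Vwf (88 to 269 reads) was not.

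None of the 36 members was called at an adjusted p of 0.05 by limma on log2(value + 1), while 2.97% of the genes tested were. At an unadjusted p under 0.05 there was 1 member, Vwf, against 17.8% of all genes, and edgeR and DESeq2 on the recovered reads also called 0 members, with 1 each at that unadjusted p. The difference was above 0 for 35 members, against 54.2% of all genes, with a median of 1.06. Its standard error had a median of 1.14 over the members and of 0.244 over all genes tested. Adjusted p-values of the members ran from 0.208 to 0.849. Leaving out Control 3 turned the sign for 28 of the 36, left 7 above 0 and gave a median of -0.13. Without Control 2 the median was 2.11, without Sox9cKO 3 it was 1.91, and without Sox9cKO 2 it was 0.59, and no member was called in any of these. The cause of the low values in Control 3 was not tested.

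Within replicate numbers the comparison of genotypes differed from number to number. Sox9cKO 1 exceeded Control 1 for 35 of the 36 members (53.5% of all genes), Sox9cKO 2 exceeded Control 2 for 17 (52.7% of all genes), and Sox9cKO 3 exceeded Control 3 for all 36 (53.1% of all genes). The median ratio of Sox9cKO to Control over the members was 2.63 for number 1, 0.998 for number 2 and 3.47 for number 3, against 1.03, 1.02 and 1.03 over all genes. Over the 35 members with more than 3 reads in every library the ratios ran from 0.658 to 4.50 for number 1, from 0.579 to 1.98 for number 2 and from 1.15 to 6.22 for number 3. The sinusoidal genes had medians of 2.54, 0.999 and 3.60. The medians within number 2 were thus level in both sets of genes, and those within numbers 1 and 3 were above 2 in both.

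**Figure D3:**
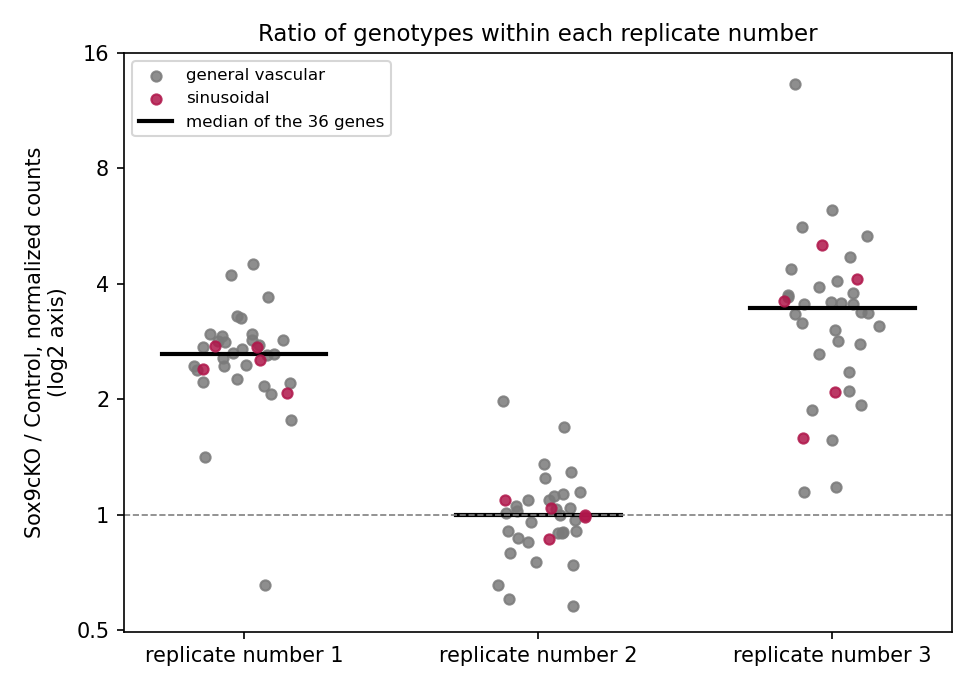
Ratio of Sox9cKO to Control normalized counts within each replicate number (log2 axis), 1 point per gene, sinusoidal genes in red and general vascular genes in grey, with the median of the 36 genes as a bar. The medians are 2.63, 0.998 and 3.47, and the dashed line marks equal levels.

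With the replicate number as a block in the limma model, 4 of the 36 members were called and all 4 were higher in Sox9cKO, against 5.06% of all genes called higher. They were Flt4 (adjusted p = 0.0443), Vwf (adjusted p = 0.0420), Sox18 (adjusted p = 0.0288) and Egfl7 (adjusted p = 0.0356). Flt4 was 2.73, 1.30 and 4.37 times as high in Sox9cKO as in the Control library of the same number, and Egfl7 2.45, 1.4 and 3.57 times. For Sox18 the ratios were 2.21, 1.98 and 4.07, the last resting on 7 reads in Control 3, and for Vwf they were 1.42, 1.69 and 1.88. All 4 therefore also stood above Control in number 2, where 17 of the 36 members did and the median of the members was level. The block favours genes with like ratios in each number, so that this was partly set by the call. None of the 5 sinusoidal genes was called with the block, where their adjusted p ran from 0.0857 to 0.216. The block reduced the members' median standard error from 1.14 to 0.323. With edgeR and the block 1 member was called, Sox18 (adjusted p = 0.0421), against 3.87% of all genes called higher. At an unadjusted p under 0.05 the block gave 29 of the 36 members with limma, against 26.3% of all genes, and 22 with edgeR, against 25% of all genes.

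Members also differed in how closely they kept to the rest. The SD over the 6 libraries of a gene's log2 level minus the members' median was smallest for Flt1 (0.19), Plvap (0.20) and Gata4 (0.21). For the sinusoidal genes it ran from 0.37 to 0.47. It was largest for Aplnr (1.87), Vwf (1.4), Emcn (0.82) and Cd34 (0.79), of which Aplnr, Emcn and Cd34 are low in reads.

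Levels between genes were compared as normalized counts per kilobase of the longest protein-coding transcript, with the median over the 6 libraries. Stab2 (823), Eng (807), Kdr (776), Ptprb (727) and Clec4g (705) were the highest, so that the leading genes came from both sets. Among the sinusoidal genes Oit3 (512), Fcgr2b (289) and Lyve1 (133) followed. The lowest were Vwf (21.5), Sox17 (19.2), Cd34 (9.87) and Aplnr (5.54). Among the first 5 the leading gene changed with the library, being Clec4g in Control 1 (506), Stab2 in Control 2 (1561) and Eng in Control 3 (64.6). Their order by median was not tested.

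Markers of other cell types did not have the endothelial order in their sums. The 10 biliary markers varied 1.60-fold over the 6 libraries, and 1 of them, Krt7, was called higher in Sox9cKO. The 12 stellate cell and fibroblast markers summed to 3484 to 4245 normalized counts in Control and 4223 to 5949 in Sox9cKO, with none called. The 10 hepatocyte markers summed to 25010 to 38877 in Control and 48511 to 79312 in Sox9cKO, with 2 called higher (Apob and Serpina1c). Macrophage markers summed to 1018 to 1198 in Control and 1578 to 1814 in Sox9cKO. Csf1r, which made up most of that sum, was called higher (log2 difference 0.92, limma adjusted p = 0.0142). Of the defining Kupffer cell markers, Clec4f had at most 82.4 and Timd4 at most 16.7 normalized counts in any library, and Marco was at 0 in Sox9cKO 3. The 5 leukocyte markers in the table summed to 88.7 to 169 in Control and 44.2 to 62.7 in Sox9cKO, and the 5 platelet and erythroid markers to 138 to 210 and 118 to 154, with none called. Of the lymphatic markers other than Lyve1 and Flt4, Mmrn1 (42.0, 144 and 13.8 in Control, 238, 68.0 and 14.7 in Sox9cKO) and Ccl21a (41.2, 161 and 10.4, then 207, 89.8 and 11.3) had the order, and Prox1 and Pdpn did not. The hepatocyte, macrophage and leukocyte sums did not overlap between genotypes, whereas the endothelial sums did. Of all single genes tested, 24.2% had groups that did not overlap. The separation rested on Apob for the hepatocyte sums (2241 to 3312 in Control, 16585 to 32564 in Sox9cKO) and on Csf1r for the macrophage sums. Over the 7 macrophage markers tested the median log2 difference was -0.39. The part of other cells in the endothelial values was not tested.

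**Figure D4:**
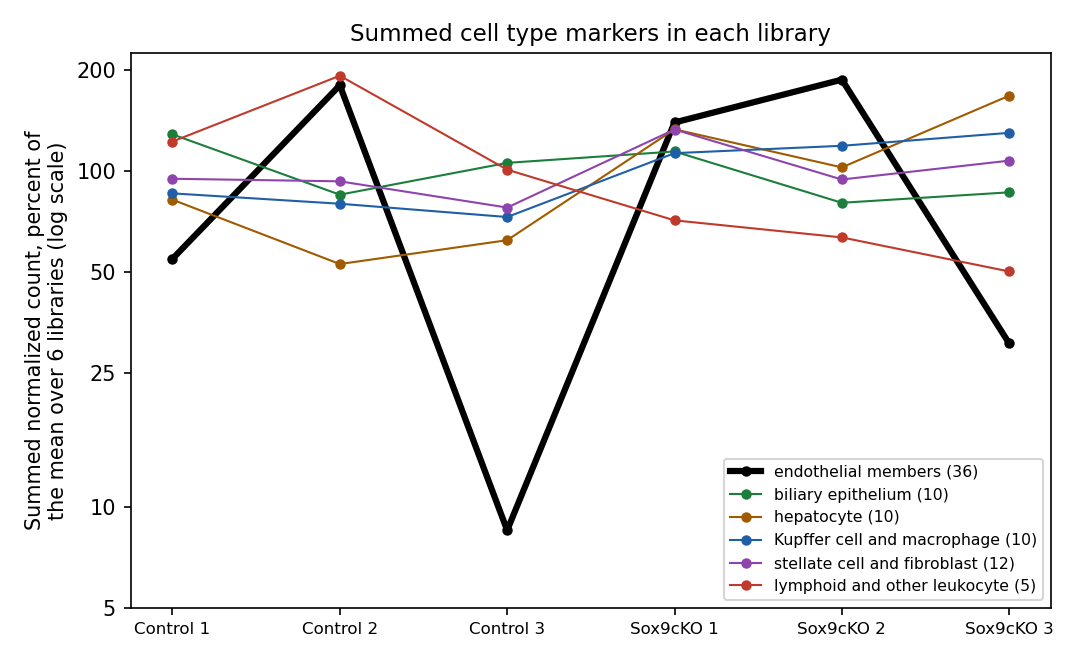
Summed normalized count of each marker list in each library, as a percent of that list's mean over the 6 libraries (log axis), with the number of genes in the table in brackets. The endothelial line spans 22.0-fold, while the biliary line spans 1.60-fold and the hepatocyte line 3.17-fold.

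Lists of other endothelial genes held 79 tested genes besides the 36. Of these, 35 (44.3%) had the order of libraries and the median log2 difference was 0.69. By limma 2 were called higher and 3 lower, with the block 11 higher and 4 lower (2.99% of all genes were called lower with the block), and none of the 5 called without the block had the order. Among 15 growth factor and guidance ligands 4 had the order. The Notch ligand Dll1 rose from 572 ± 145 to 1276 ± 236 normalized counts (SD, n = 3 each; log2 difference 1.17, SE 0.21, limma adjusted p = 0.0342), and the Tek ligand Angpt1 fell from 689 ± 100.5 to 294 ± 65.8 (log2 difference -1.24, SE 0.21, limma adjusted p = 0.0257). Among 18 other receptors 11 had the order, and the netrin receptor Unc5b rose from 1690 ± 164 to 2668 ± 298 (log2 difference 0.66, SE 0.13, limma adjusted p = 0.0474). Among 19 other transcription factors 7 had the order, and Foxc1, a forkhead factor, fell from 190 ± 41.7 to 35.7 ± 10.7 (log2 difference -2.39, SE 0.28, limma adjusted p = 0.00710). Among 14 further sinusoidal genes 4 had the order, and Aass, an enzyme of lysine breakdown, fell from 455 ± 27.8 to 273 ± 18.6 (log2 difference -0.74, SE 0.13, limma adjusted p = 0.0312). Among 14 genes of zonation and angiocrine signalling 10 had the order and none was called. Thbd, the thrombin receptor thrombomodulin, had 197, 1456 and 25.3 in Control and 679, 1232 and 151 in Sox9cKO (log2 difference 1.35, SE 1.41, limma adjusted p = 0.680). Cdh13, a cadherin without a cytoplasmic domain, had 128, 275 and 104 against 457, 451 and 229 (log2 difference 1.23, SE 0.42, limma adjusted p = 0.189, and 0.0237 with the block). Of the 18 alternatives of processing, Foxc1 kept its call in all, Angpt1 in 14, Dll1 in 12, Aass in 11 and Unc5b in 8. Cd36, a further sinusoidal gene, was not among the 5 called genes. It was called higher in 10 of the 18 alternatives, over which its log2 difference ran from 2.31 to 3.69. Leaving out any 1 library ended the calls of Aass and Unc5b, any but Control 2 that of Dll1, and Control 1, Control 3 or Sox9cKO 1 that of Angpt1.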

How the data were processed

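RNA was sequenced from 3 Control and 3 Sox9cKO samples; per the labels' protocols, total RNA was depleted of rRNA and stranded Pico libraries with UMIs were made. The values deposited by the authors are a signal for each gene, which proved to be read counts divided by 1 size factor per sample; DESeq2 1.36.0 and build GRCm39 appear in the submitters' processing notes. The aligner, the counter, the annotation and the use made of UMIs and strand are not given in the sources used here. Whole reads were recovered for 100% of the values (tolerance 0.001).

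Genes with a mean of at least 10 over the 6 samples were tested on log2(value + 1) with limma 3.58.1 (R 4.3.3, intensity trend, two-sided, Benjamini-Hochberg adjustment over 17153 genes, threshold 0.05). Fold changes on this scale are understated for low genes. The design had been written for such normalized values, and no column lay outside the labels. An exact permutation test of 3 against 3 cannot go below 0.1. Counting intervals cover counting error only. The code was tested on simulated data.

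The sources do not say whether the replicate numbers in the sample titles pair the samples. Each title also carries a number in brackets, close to each other within a replicate number, of which the meaning is not given. Deviations from group means correlated at 0.207, 0.472 and 0.542 within numbers 1, 2 and 3, and at -0.437 to 0.0476 between different numbers. The latter are not independent of the former, because deviations within a group cancel. Results with the number as a block are therefore given where they change a call, and they assume that pairing. The alternatives tried were a pseudocount of 0.1 or 5, filtering at a mean of 50 or not at all, scaling by TMM or by quantiles, no trend, sample weights, edgeR 4.0.16 and DESeq2 1.42.0 on the recovered reads, and leaving out each sample. The members, the marker lists and the other endothelial lists were chosen with earlier results of these data known. Named from each other endothelial list were at most 3 called genes by p-value or, where none was called, the 2 with the largest change. Cd36 is named in addition, for its calls under alternatives. Transcript lengths came from GENCODE M21 on GRCm38, and promoters from RefSeq, whose build differs from that of the table.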

Additional observations from a re-analysis of the deposited data

How the results depend on the processing

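The number of members called was 0 without the replicate block and 4 with the replicate block, or 1 with edgeR and the block, and it stayed at 0 under every other alternative run. The number of genes called in all, 510, became 1043 with sample weights, 1381 with the replicate block, 1160 with edgeR and the block, and 1214 with DESeq2, and ran from 199 to 387 when 1 library was left out. Leaving out 1 library turned the sign of 10 of the 15 members whose log2 differences are given singly, with log2 differences from -0.12 to 2.34 for Stab2, -0.34 to 2.13 for Lyve1, -0.46 to 1.74 for Clec4g, -0.56 to 1.82 for Fcgr2b, -0.12 to 2.20 for Oit3, -0.14 to 2.12 for Kdr, -0.22 to 2.15 for Cdh5, -0.25 to 1.54 for Pecam1, -0.24 to 1.48 for Sox17 and -0.66 to 0.017 for Aplnr. The turn came without Control 3 for the first 8, without Control 3 (-0.21) or Sox9cKO 1 for Sox17, and without Sox9cKO 1 for Aplnr, and the cause was not tested. Flt4, Vwf, Sox18, Egfl7 and Cd34 stayed above 0 in each case, from 0.31, 0.49, 0.27, 0.11 and 0.23 upwards. The sinusoidal median ran from -0.34 to 2.13 and the vascular median from -0.13 to 2.10. The members' median was 0.51 with edgeR, 0.52 with DESeq2 and 1.43 with sample weights, against 1.06. The median over all genes was 0.036, and 0.042 with TMM factors and -0.032 with quantile normalization. Depth limits Emcn, Nos3, Cd34, Sox18 and Erg in Control 3, with 2, 6, 6, 7 and 9 reads.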
